A study of Mus musculus with 28 samples.

Results

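The 9 serine protease genes of the testis described here were followed through the sorted germ cells, whole testes and ovary of *Csmd1* wildtype (WT) and knockout (KO) mice. They were *Prss21*, *Prss37*, *Prss42*, *Prss44*, *Prss46*, *Prss50*, *Prss54*, *Prss55* and *Prss58*, chosen by name, and all 9 had rows in the expression table, 15 transcript rows in all, among 28057 genes with a value in every library. The level of a gene is the sum of its transcripts in reads per kilobase of exon, scaled to the mapped reads of the library (RPKM). The 28 libraries came from 13 mice labelled C57BL/6 and held polyadenylated RNA. The KO allele replaces the first exon of *Csmd1* and part of the first intron with a lacZ and neomycin cassette in the whole animal. The methods describe the colony as of mixed 129SvEvBrd and C57BL/6 background, with littermates bred from heterozygous parents, and no mouse carried another labelled allele or treatment. Sorted cells came from 8 males. Spermatogonia were collected from 2 WT mice (178 and 648) and 2 KO mice (286 and 544), primary spermatocytes from 2 WT (178 and 648) and 4 KO (544, 550, 613 and 614), secondary spermatocytes from 2 WT (178 and 648) and 3 KO (286, 544 and 550), and spermatids from 3 WT (178, 351 and 648) and 2 KO (286 and 544). Whole testes came from 2 WT (178 and 648) and 5 KO (214, 269, 273, 286 and 308) mice, and the ovary from 1 WT female. Males for sorting were 40 ± 1 days old by the methods, and whole testes were taken at 20 days (immature) and 40 days (mature). The labels give no age, and of the mice used here only 178 and 351 have one in the part of the sample list read here, 40 days each. Within a stage each library is another mouse, so genotype within a stage is compared between mice. The spread behind those p-values in sorted cells is a shared estimate over all 20 sorted libraries, which treats them as independent. The stages share mice, and the main tests between stages treat their libraries as independent.

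Serine proteases of the trypsin fold cut a peptide bond with a catalytic serine that works together with a histidine and an aspartate. The testis makes an unusually large family of them in its germ cells, and many sit on the sperm surface or in the acrosome, the vesicle whose contents are released at fertilization. *Prss21* encodes testisin, a protease anchored to the sperm membrane. *Prss42*, *Prss44* and *Prss46* belong to the testis-specific serine protease group, and *Prss42* has been tied to the passage of spermatocytes through meiosis. *Prss50* encodes TSP50, found in the testis and in some tumours. *Prss37* and *Prss55* are needed in the male for sperm to enter the oviduct, and both act in the maturation of the sperm protein ADAM3. *Prss54* takes part in forming the acrosome.

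The members differed in the very codon that gives a serine protease its name, so the coding stretch around it is shown for the most abundant transcript of each. The stretch runs over 33 bases of coding sequence from one conserved cysteine codon to the next, read from the GENCODE M21 transcripts of GRCm38, and the capitals mark the codon at the place of the catalytic serine. An intron splits each stretch, so the coordinates span more than the bases printed.
*Prss21*, chr17:23872520-23872821, plus strand: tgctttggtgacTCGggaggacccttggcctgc
*Prss42*, chr9:110800966-110803021, plus strand: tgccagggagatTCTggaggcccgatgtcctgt
*Prss44*, chr9:110816566-110817115, plus strand: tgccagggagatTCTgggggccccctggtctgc
*Prss55*, chr14:64075768-64077086, minus strand: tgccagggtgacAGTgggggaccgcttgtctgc
*Prss46*, chr9:110851473-110856026, plus strand: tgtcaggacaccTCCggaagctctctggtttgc
*Prss50*, chr9:110863891-110864307, plus strand: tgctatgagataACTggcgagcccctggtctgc
*Prss54*, chr8:95559796-95564355, minus strand: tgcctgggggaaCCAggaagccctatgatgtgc
*Prss58*, chr6:40895485-40895600, minus strand: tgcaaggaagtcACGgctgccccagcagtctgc
*Prss21*, *Prss42*, *Prss44* and *Prss55* hold a serine codon there, and all 6 codons from the glycine 2 places before it to the proline 3 places after it encode the residues usual in this family. *Prss46* also holds a serine codon, but 2 of those 6 codons encode the usual residue. *Prss50* (2 of 6) and *Prss58* (1 of 6) hold a threonine codon, and *Prss54* (3 of 6) holds a proline codon. No such stretch with both cysteines was found in *Prss37*. The 9 genes therefore comprise 5 with a serine codon at this place, 3 with another codon and 1 without the stretch. None of the main transcripts of the 9 genes shared a stretch of 50 bases with a transcript of another gene, in either strand, so their reads can be told apart at that length.

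A group of 4 members lies together. *Prss42* (chr9:110798166-110803754), *Prss44* (chr9:110813994-110824523), *Prss46* (chr9:110844506-110856522) and *Prss50* (chr9:110857967-110864629) are all on the plus strand within 66.5 kb, and 1444 bases separate *Prss46* from *Prss50*. *Prss37* (chr6:40514824-40519508) and *Prss58* (chr6:40895270-40900387) are both on the minus strand, 376 kb apart. *Prss54* (chr8:95559069-95576340, minus strand), *Prss55* (chr14:64075438-64090162, minus strand) and *Prss21* (chr17:23868056-23873114, plus strand) lie on chromosomes of their own. Within the chromosome 9 group, *Prss42* and *Prss44* were called higher in primary spermatocytes than in spermatogonia, *Prss50* was called lower and *Prss46* was not called.

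Several libraries stood apart. Depth was 23796778 to 61642416 reads (median 45288367) in 27 libraries and could not be estimated for primary spermatocytes of KO mouse 613. The library labelled spermatogonia of KO mouse 544 held 1402 RPKM of *Prm1*, the protamine gene of late spermatids, against 0.0940 to 92.9 in the other 3 spermatogonia libraries. Its summed level of the 6 round spermatid markers was 821 RPKM against 5.33 to 29.3, and that of the 6 spermatogonia markers 284 against 629.5 to 830 RPKM. In contrast, all libraries of WT mouse 648 and KO mouse 286 held little *Prm1* (0.0940 to 2.14 RPKM), also those labelled spermatids, where the other 3 mice held 930 to 2579 RPKM. Among whole testes *Prm1* was 603, 1152 and 1922 RPKM in mice 178, 214 and 273 and 0.439 to 1.16 RPKM in the other 4. The ages of mice 648, 286, 269 and 308 are not known here, so age cannot be told apart from mouse in any result that turns on them. Spermatids of mice 648 and 286 did hold the acrosomal round spermatid marker *Acrv1*, at 47.9 and 86.2 RPKM against 91.0 to 173 in the other 3. The 6 primary spermatocyte markers summed to 411.5 to 2362 RPKM in primary spermatocytes but also to 352 to 1956 RPKM in spermatogonia, so they did not separate those gates. Sertoli cell markers summed to 3.41 to 102 RPKM in the sorted libraries. *Rhox5*, one of the 6, was listed at 0 in all of them. Leydig cell markers summed to 2.11 to 328 RPKM. Full-length *Csmd1* stood at 0.0700 to 0.517 RPKM in WT and 0.370 to 2 RPKM in KO spermatids. Its reads come from the whole transcript, and the allele removes its first exon. For KO testes the paper reports most exons as absent or much reduced and the last exons as raised, which this value does not separate. The value therefore does not check the genotype labels.

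The 9 genes were distributed over spermatogenesis in 4 patterns. *Prss50* was highest in spermatogonia within each mouse that gave them, and *Prss42*, *Prss44* and *Prss21* rose by primary spermatocytes. *Prss46* and *Prss54* had levels in every secondary spermatocyte library above those in every primary one. The levels of *Prss37*, *Prss55* and *Prss58* moved with *Prm1* from library to library. From spermatogonia to primary spermatocytes 3 of 9 members rose and 1 fell (limma, adjusted p under 0.05, averaged over genotypes), while 9.5% of the 19039 genes tested were called higher and 22% lower. With quantile normalization the 1809 higher and 4192 lower calls over all genes became 3106 and 2873, and the same 3 members were called higher. From primary to secondary spermatocytes limma called 0 of 9 members, with 2 at an unadjusted p under 0.05, against 2.84% of genes higher and 0.194% lower. From secondary spermatocytes to spermatids it called 0 of 9, with 0 at an unadjusted p under 0.05, against 0.00525% higher and 0.536% lower. The median difference over the members in these 3 steps was 0.58, 0.71 and 0.63 on the log2 scale, beside -0.27, 0.18 and -0.33 over all genes. In sorted or whole bulk RNA, fewer cells of a type cannot be told apart from less RNA per cell.

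**Figure D1:**
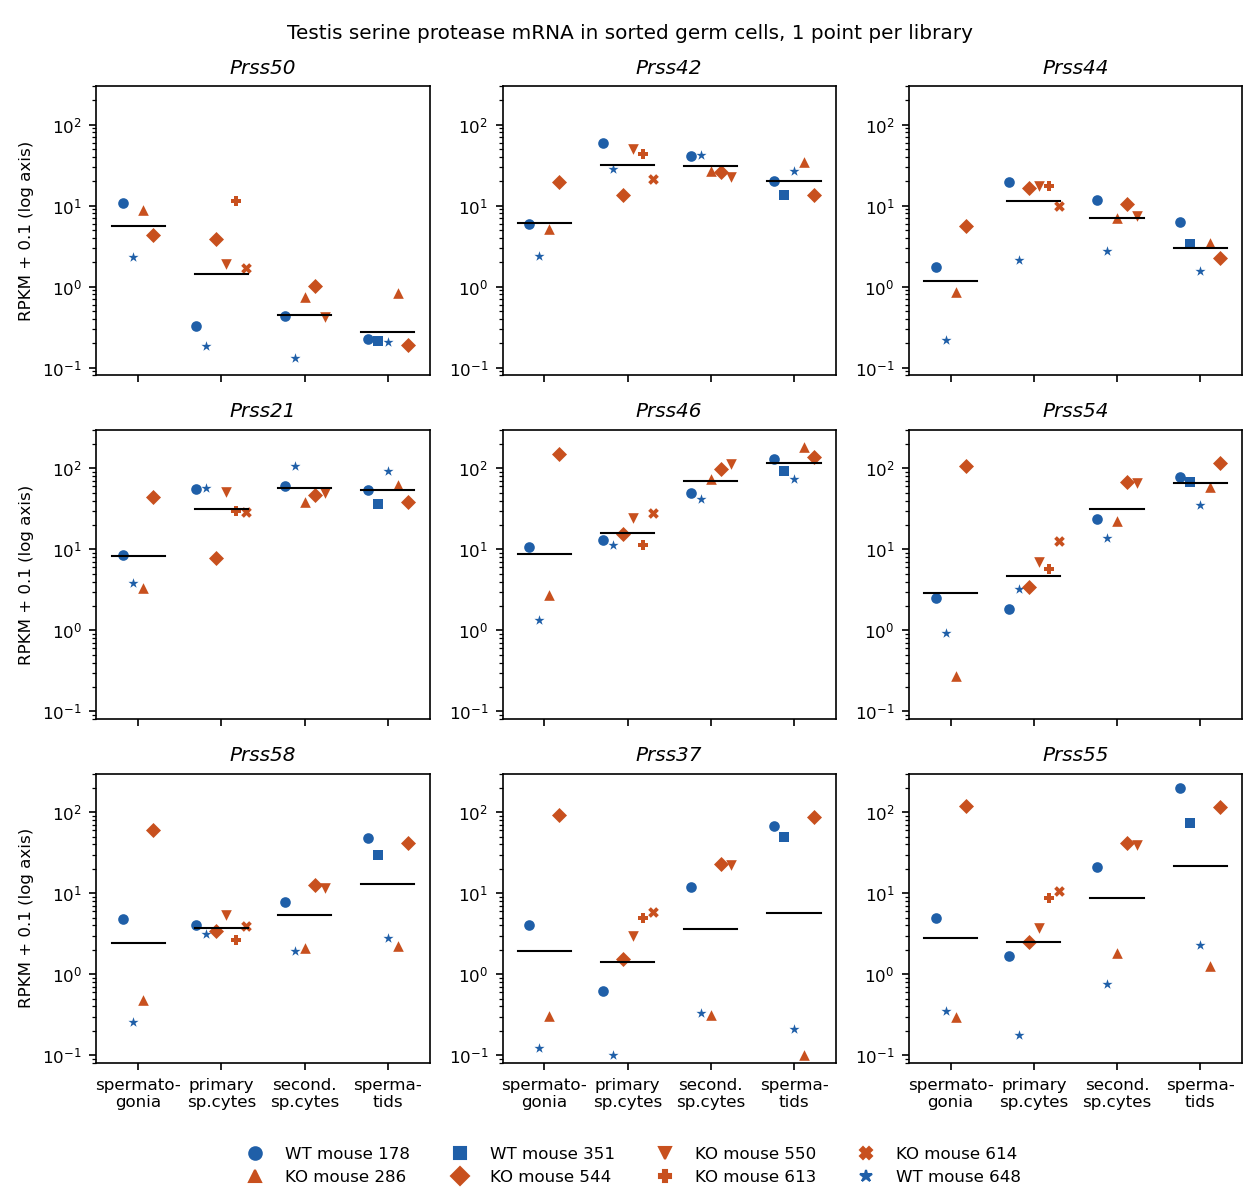
Level of each member in the 20 sorted libraries (RPKM + 0.1, log axis) by stage, with 1 point per library, blue for WT and orange-red for KO, a symbol per mouse, and a line at the mean on the log scale. Among the stages each mouse gave, *Prss50* is highest in spermatogonia in the 4 mice that gave them. Primary spermatocytes of KO mouse 613 (11.3 RPKM) lie above all of these. In the bottom row mice 648 and 286 sit far below the other mice in spermatids (*Prss37* 0.111 and 0 RPKM against 48.7 to 86.2).

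The calls depended on a few libraries. Without the spermatogonia library of mouse 544, the members called higher at primary spermatocytes were 5 instead of 3, with *Prss46* and *Prss54* added, and the same 2 genes were also called higher in secondary than in primary spermatocytes. Over the 19026 genes of that setting, 2608 were higher and 4161 lower at the first step, and 1372 were higher and 128 lower at the second. Without mice 648 and 286 together, a choice made after seeing the data, 1 member (*Prss44*) was higher and 4 (*Prss37*, *Prss54*, *Prss55*, *Prss58*) were lower in primary spermatocytes than in spermatogonia, and that comparison rests on the library of mouse 544 as the one KO spermatogonia sample. In the same setting 4 members (*Prss37*, *Prss46*, *Prss54*, *Prss55*) were higher in secondary than in primary spermatocytes. Over all 19029 genes of that setting, 319 were higher and 2099 lower at the first step, and 1159 were higher and 1 lower at the second. Leaving out mouse 286 alone left 1 member higher and 2 lower at primary spermatocytes (757 and 3461 of 18965 genes), and leaving out mouse 178 left 2 higher and 0 lower (718 and 2447 of 19140 genes).

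Among the stages taken from each mouse, *Prss50* was highest in spermatogonia in the 4 mice that gave them. Mouse 286 gave no primary spermatocytes. It stood at 10.5 (893 reads) and 2.24 RPKM in WT mice 178 and 648 and at 8.66 and 4.24 RPKM in KO mice 286 and 544. In primary spermatocytes it was 0.222 (19 reads) and 0.0830 RPKM in WT mice 178 and 648, and 3.77, 1.82, 11.3 and 1.58 RPKM in KO mice 544, 550, 613 and 614. The KO primary spermatocytes thus overlapped with spermatogonia, and the WT ones did not. The level in KO mouse 613 was above that of all 4 spermatogonia libraries. Secondary spermatocytes held 0.0330 to 0.929 RPKM and spermatids 0.0880 to 0.732 RPKM, so that these 10 libraries all lay below the 4 of spermatogonia. The fall at primary spermatocytes was -2.60 ± 0.66 (SE) on the log2(RPKM + 0.1) scale (adjusted p = 0.00679, limma with Benjamini-Hochberg adjustment over all genes). It was not called with quantile normalization (-1.73 ± 0.66, adjusted p = 0.0544, limma), without mouse 178 (-2.26, adjusted p = 0.0786) without mice 648 and 614 (-2.77, adjusted p = 0.0546) or without mice 648 and 286 (-2.69, adjusted p = 0.0690). WT libraries alone gave -4.36 ± 0.86 (adjusted p = 0.00569, limma) and KO libraries alone -0.84 ± 0.90 (adjusted p = 0.691, limma). Over all genes, 5707 of 18117 were called at this step in WT libraries alone and 0 of 19390 in KO libraries alone. The test of a genotype effect that differs over the 4 stages gave an unadjusted p of 0.0614 (adjusted p = 1, limma). In mouse 178, from which all 4 stages were taken, the spermatogonia level was 82.9 times that of spermatids. The level of *Prss50* moved with that of *Uchl1*, a marker of spermatogonia (Pearson r = 0.86 over 20 libraries that share mice). Even in the library of mouse 544 with spermatid transcripts *Prss50* was 4.24 RPKM, against 3.77 in primary spermatocytes and 0.0880 in spermatids of the same mouse.

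*Prss42* rose by primary spermatocytes. It was 5.78, 2.32, 5.03 and 19.3 RPKM in spermatogonia of mice 178, 648, 286 and 544, the last being the library with spermatid transcripts. In primary spermatocytes it was 58.7 and 28.4 RPKM in WT mice 178 and 648 and 13.4, 49.2, 43.2 and 21.2 RPKM in KO mice 544, 550, 613 and 614. With the library of mouse 544 left aside, every primary spermatocyte library was above every spermatogonia library, and the difference was 2.46 ± 0.50 with all libraries (adjusted p = 0.00175, limma). It was not called without mice 648 and 286 (1.93, adjusted p = 0.0619, limma) or in KO libraries alone (1.49, adjusted p = 0.342, limma), where 0 of 19390 genes were called at this step. No later step passed the test. Secondary spermatocytes held 22.4 to 42.4 RPKM and spermatids 13.4 to 34.7 RPKM, with a difference of -0.67 ± 0.49 (adjusted p = 0.493, limma).

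*Prss44*, the next gene along chromosome 9, also rose by primary spermatocytes. Spermatogonia held 1.67, 0.120, 0.770 and 5.47 RPKM in mice 178, 648, 286 and 544. Primary spermatocytes held 19.3 and 2.003 RPKM in WT mice 178 and 648 and 16.5, 17.5, 17.4 and 9.74 RPKM in the 4 KO mice. Mouse 648 was thus far below the other 5 mice at this stage, as it was in spermatogonia. The difference between the stages was 3.06 ± 0.74 (adjusted p = 0.00521, limma), and it was not called without mouse 286 (2.39, adjusted p = 0.0507, limma), in WT libraries alone (3.36, adjusted p = 0.0746, limma) or in KO libraries alone (2.77, adjusted p = 0.158, limma). It was 2.69 to 11.7 RPKM in secondary spermatocytes and 1.47 to 6.10 RPKM in spermatids, 2 steps of -0.51 ± 0.71 and -1.20 ± 0.73 that did not pass the test (adjusted p = 0.730 and 0.406, limma). In each of the 3 mice with primary spermatocytes and spermatids, the spermatids were lower (6.10 against 19.3 in mouse 178, 1.47 against 2.003 in 648 and 2.15 against 16.5 in 544).

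*Prss21*, the membrane-anchored testisin gene, was 8.53, 3.71 and 3.23 RPKM in spermatogonia of mice 178, 648 and 286 and 44.2 RPKM in those of mouse 544. Primary spermatocytes held 55.3 and 56.5 RPKM in WT mice and 7.73, 50.6, 29.5 and 28.6 RPKM in KO mice 544, 550, 613 and 614. The stages overlapped only through mouse 544, whose spermatogonia library was high and whose primary spermatocyte library was low. The difference was 2.14 ± 0.64 (adjusted p = 0.0168, limma), and without the spermatogonia library of mouse 544 it was 3.07 ± 0.55 (adjusted p = 0.000729, limma). It was no longer called without mouse 178, 286 or 648 (2.44, 1.21 and 1.84, adjusted p = 0.0785, 0.144 and 0.180, limma), without mice 648 and 614 (1.79, adjusted p = 0.236), without mice 648 and 286 (0.90, adjusted p = 0.451) or in KO libraries alone (0.99, adjusted p = 0.663). Secondary spermatocytes (38.9 to 106 RPKM) and spermatids (36.3 to 93.1 RPKM) overlapped with primary spermatocytes. *Prss21* was the most abundant member in spermatids of mouse 648, at 93.1 RPKM. Its level was correlated with that of *Prss42* (r = 0.85) and negatively with that of *Prss50* (r = -0.70, 20 libraries).

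*Prss46* and *Prss54* had their higher levels later. *Prss46* was 10.6, 1.25 and 2.60 RPKM in spermatogonia of mice 178, 648 and 286 and 152 RPKM in those of mouse 544. It was 11.1 to 27.8 RPKM in the 6 primary spermatocyte libraries, and 49.8, 42.3, 74.1, 97.8 and 112 RPKM in secondary spermatocytes of mice 178, 648, 286, 544 and 550. Spermatids held 131, 93.2 and 74.3 RPKM in WT mice 178, 351 and 648 and 183 and 137 RPKM in KO mice 286 and 544. Every secondary spermatocyte library was above every primary spermatocyte library, and the level in spermatids of mouse 286, which held little *Prm1*, was the highest of the 20. The table holds 2 nearly identical *Prss46* transcripts that repeat the same reads, so the summed level is close to double that of either transcript (in spermatids of mouse 178, 65.9 and 65.0 RPKM).

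*Prss54* followed the same course at a lower level. In spermatogonia it was 2.40, 0.831 and 0.170 RPKM in mice 178, 648 and 286 and 108 RPKM in mouse 544, and primary spermatocytes held 1.76 to 12.5 RPKM. Secondary spermatocytes held 23.6, 13.8, 22.1, 67.7 and 66.4 RPKM in mice 178, 648, 286, 544 and 550, and spermatids 79.1, 67.5, 35.7, 59.3 and 115 RPKM in mice 178, 351, 648, 286 and 544. Again no secondary spermatocyte library overlapped with primary spermatocytes. The differences between these stages were 2.87 ± 1.04 for *Prss54* and 2.13 ± 0.77 for *Prss46* and missed the threshold (adjusted p = 0.120 for each, limma). With the mouse as a block they were 3.17 ± 0.88 and 2.24 ± 0.68 (adjusted p = 0.0194 and 0.0294, limma). Without the spermatogonia library of mouse 544, which belongs to neither stage but to the shared estimate of the spread, they were 2.87 ± 0.47 and 2.13 ± 0.46 (adjusted p = 0.00257 and 0.00997, limma). The 2 genes moved together over the 20 libraries (r = 0.96), and each moved with *Acrv1* (r = 0.98 for *Prss54* and 0.94 for *Prss46*).

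**Figure D2:**
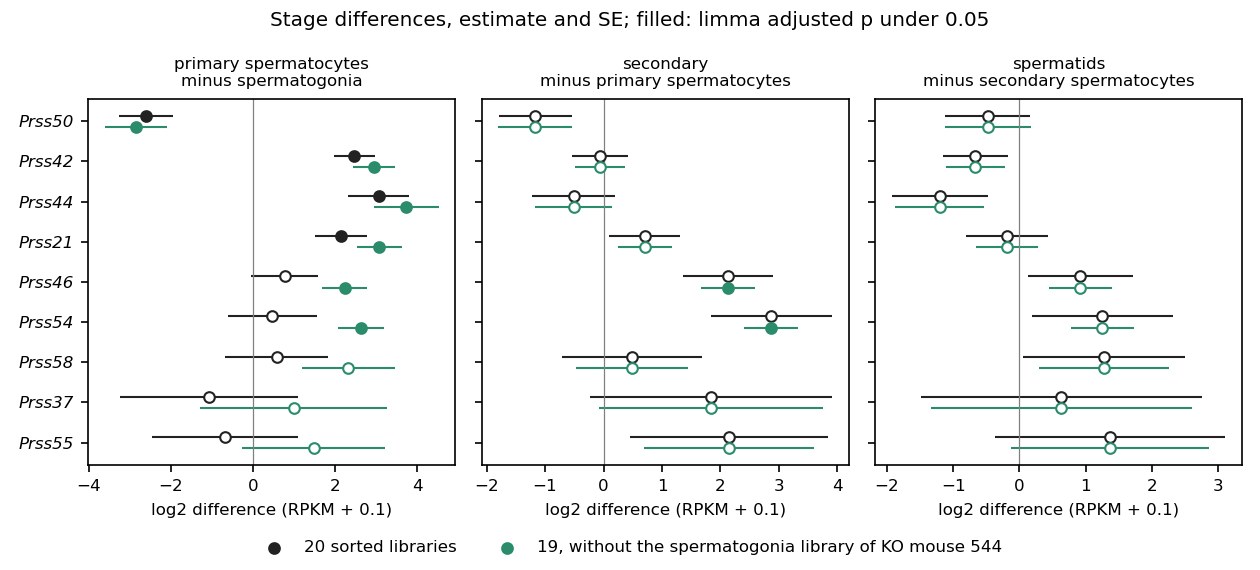
Difference between neighbouring stages for each member (log2 of RPKM + 0.1, averaged over genotypes) with its SE, from all 20 sorted libraries (black) and from 19 without the spermatogonia library of KO mouse 544 (green). Filled points passed an adjusted p of 0.05. *Prss46* and *Prss54* passed in the left and middle panels only without that library (*Prss54* 2.63 ± 0.56 and 2.87 ± 0.47).

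*Prss37*, *Prss55* and *Prss58* differed from the others in that spermatids of different mice did not resemble each other. *Prss37* was 66.6, 48.7 and 86.2 RPKM in spermatids of mice 178, 351 and 544. In mouse 178 its main transcript stood at 50.1 RPKM (2280 reads). By contrast, *Prss37* was 0.111 RPKM (6 reads) in mouse 648 and 0 in mouse 286, where 0 reads allow at most 0.0586 RPKM. Secondary spermatocytes repeated this, with 11.8, 22.7 and 22.4 RPKM in mice 178, 544 and 550 and 0.232 and 0.211 RPKM in mice 648 and 286. In spermatogonia *Prss37* was 3.94, 0.0210, 0.207 and 91.7 RPKM in mice 178, 648, 286 and 544, so that its highest level of all sorted libraries was in one labelled spermatogonia. Primary spermatocytes held 0.519 and 0 RPKM in WT mice 178 and 648 and 1.43 to 5.81 RPKM in the 4 KO mice. These are the mice and libraries in which *Prm1* was high or low, and whether the *Prm1*-containing cells account for the *Prss37* reads was not tested.

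*Prss55* divided the mice in the same way. Its summed level was 196, 72.9 and 115 RPKM in spermatids of mice 178, 351 and 544 and 2.19 and 1.15 RPKM in those of mice 648 and 286. In secondary spermatocytes it was 20.98, 41.9 and 39.8 RPKM in mice 178, 544 and 550 and 0.647 and 1.74 RPKM in mice 648 and 286. Spermatogonia held 4.78, 0.251, 0.193 and 118 RPKM in mice 178, 648, 286 and 544. As with *Prss37*, mice 648 and 286 were low at every stage from which they gave a library. Primary spermatocytes held 0.0760 RPKM in mouse 648 and 1.58 to 10.5 RPKM in the other 5 mice.

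*Prss58* was less dependent on the mouse. It stood at 48.2, 29.3 and 42.1 RPKM in spermatids of mice 178, 351 and 544 and at 2.67 and 2.12 RPKM in mice 648 and 286. Primary spermatocytes held 2.58 to 5.26 RPKM in all 6 mice, mouse 648 included at 3.03 RPKM, while spermatogonia of mice 648 and 286 held 0.156 and 0.386 RPKM. In mice 648 and 286, then, *Prss58* was present from the spermatocyte stages onward at a few RPKM and lacked the higher level of the other mice. No stage difference of *Prss37*, *Prss55* or *Prss58* passed the test with all libraries, and their SEs reached 2.17, 1.78 and 1.26 on the log2 scale for the first step (limma).

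Over the 20 sorted libraries, the correlation with *Prm1* on the log2(RPKM + 0.1) scale was 0.96 for *Prss37*, 0.95 for *Prss55* and 0.91 for *Prss58*. It was 0.63 for *Prss54*, 0.58 for *Prss46*, 0.48 for *Prss44*, 0.23 for *Prss21*, 0.13 for *Prss42* and -0.05 for *Prss50*. These libraries share mice, and the values are descriptions. *Prss37* and *Prss55* were correlated with each other at 0.96, and *Prss55* with *Prss58* at 0.90. By contrast, *Prss46* and *Prss54* stayed at 35.7 RPKM or more in spermatids of mice 648 and 286, which separates these 2 genes from the *Prm1*-like 3 in the same libraries.

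**Figure D3:**
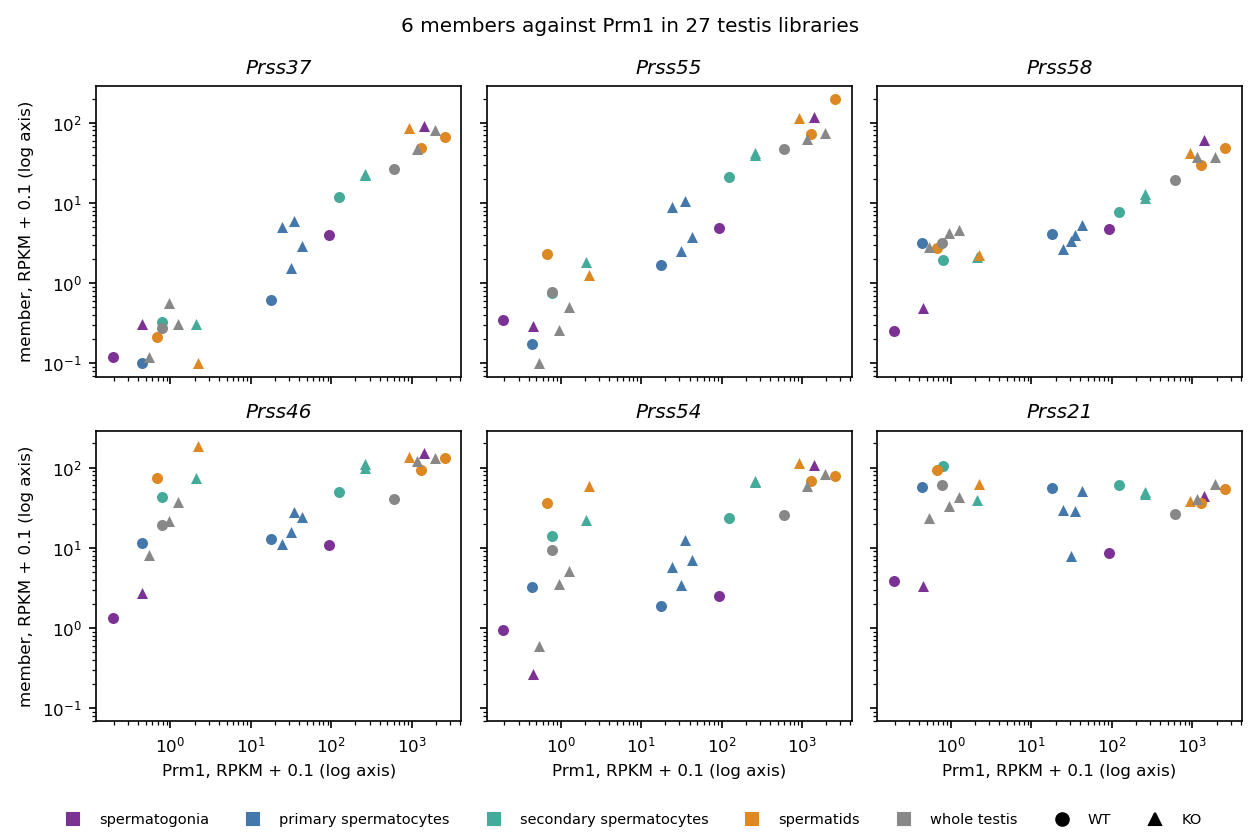
Level of 6 members against the level of *Prm1* in the 27 testis libraries (both RPKM + 0.1, log axes), coloured by stage, with circles for WT and triangles for KO. *Prss37* and *Prss55*, and *Prss58* at its upper end, lie along a diagonal that includes the purple triangle of KO mouse 544, while spermatids with little *Prm1* (orange, left) keep high *Prss46*, *Prss54* and *Prss21*.

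The order of the members within a stage depended on the mouse as well. Because summed transcripts can repeat reads, levels of different genes were compared by the most abundant transcript of each, in RPKM. In spermatids of mouse 178 the order was *Prss55* (86.3), *Prss46* (65.9), *Prss21* (53.8), *Prss37* (50.1), *Prss58* (48.2), *Prss54* (37.95), *Prss42* (19.9), *Prss44* (5.46) and *Prss50* (0.127). Spermatids of mouse 648 were led by *Prss21* (93.1), *Prss46* (37.7), *Prss42* (26.9) and *Prss54* (18.0), with the other 5 at 2.67 or less. *Prss46* was first in spermatids of mice 286, 351 and 544 (92.8, 47.0 and 69.3). *Prss46* was thus among the top 2 in all 5 mice, and *Prss50* was last in 4 of 5. With 1 library per mouse, neighbours in these orders have no error of their own.

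Whole testes showed the same division. *Prss37* was 26.1, 47.2 and 81.2 RPKM in the testes of WT mouse 178 and KO mice 214 and 273, and 0.179, 0.464, 0.212 and 0.0200 RPKM in those of WT mouse 648 and KO mice 269, 286 and 308. *Prss55* was 47.4, 63.3 and 74.5 RPKM in the first 3 and 0 to 0.684 RPKM in the other 4. The testes with high *Prss37* and *Prss55* were those with *Prm1* above 600 RPKM, and both genotypes occurred on each side. Whether the 4 low testes were the immature ones was not tested. *Prss58* was 19.4, 37.2 and 37.3 RPKM in the first 3 testes and 2.76 to 4.48 RPKM in the other 4.

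Of the members that rose by primary spermatocytes, *Prss42* ranged from 14.7 to 33.2 RPKM over the 7 testes, *Prss21* from 23.5 to 62.9 RPKM and *Prss44* from 1.31 to 14.8 RPKM. *Prss54* was 25.7, 58.5 and 83.1 RPKM in the testes of mice 178, 214 and 273. It was 9.39, 3.47, 5.10 and 0.494 RPKM in those of mice 648, 269, 286 and 308. *Prss46* was 40.8, 120.7 and 130 RPKM in the former and 19.1, 21.25, 37.1 and 7.98 RPKM in the latter. Both thus also divided the testes by *Prm1*, *Prss46* by a narrow gap, and both were lowest in KO mouse 308. That testis had the highest *Prss50* of the 7, 9.39 RPKM, where the others held 1.05 to 5.81 RPKM. It also had the highest summed Sertoli cell markers (362 against 49.7 to 166.5 RPKM) and spermatogonia markers (375 against 52.8 to 138.5 RPKM), and their part in its *Prss50* level was not tested.

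**Figure D4:**
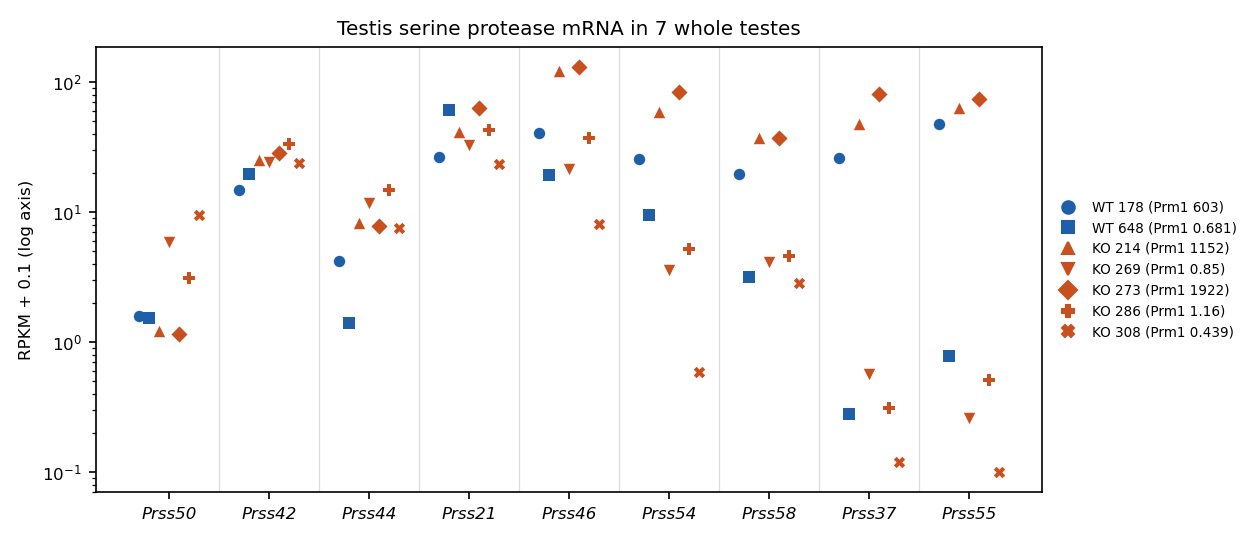
Level of each member in the 7 whole testes (RPKM + 0.1, log axis), blue for WT and orange-red for KO, 1 symbol per mouse, with the *Prm1* level of each testis in RPKM in the key. *Prss37*, *Prss55* and *Prss58* split the testes into the 3 with high and the 4 with low *Prm1*. *Prss54* does so too, as does *Prss46* by a narrow gap (40.8 RPKM in mouse 178 against 37.1 in mouse 286). *Prss42* and *Prss21* do not.

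In the ovary 7 of the 9 members were at 0, which at its depth of 52707102 reads allows at most 0.0359 to 0.0581 RPKM, a limit set by 3 reads and covering counting error only. The other 2 were *Prss44* at 0.261 RPKM and *Prss50* at 0.0650 RPKM (5 reads). Of the summed *Prss44* level, 0.103 RPKM (10 reads) was in its main transcript and 0.158 RPKM in another, which may repeat the same reads. Late spermatid markers summed to 0.123 RPKM in this library and ovary markers to 146 RPKM. There was 1 ovary, so no test was made.

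The series was built to compare genotypes, and no member passed that comparison. In sorted cells limma called 0 of 9 members in each of the 4 stages at an adjusted p of 0.05, and 0% of all genes either way. At an unadjusted p under 0.05 there was 1 member in primary spermatocytes and 0 in each of the other 3 stages, beside 780, 1466, 519 and 109 genes higher and 238, 200, 31 and 30 lower in KO from spermatogonia to spermatids. In whole testes limma called 0 of 9 members and 0% of 22776 genes, with 1 member and 2402 genes higher and 91 lower at an unadjusted p under 0.05. The test of a genotype effect that differs between stages called 0 of 9 and 0% of genes, with 0 members and 483 genes at an unadjusted p under 0.05. The members' median difference (KO minus WT) was 1.82, 1.23, 1.02 and -0.19 from spermatogonia to spermatids and 0.27 in whole testes, beside 0.07, 0.41, 0.21, 0.14 and 0.39 over all genes. The members' medians turned on single libraries. In spermatogonia it was -0.78 without the library of mouse 544, and in secondary spermatocytes -0.43 without mouse 648. Without mouse 178 these 2 medians were 3.32 and 1.74. Each of these settings leaves 1 library in a genotype group. The SEs of single members ran from 0.655 to 3.29 on the log2 scale in sorted cells, so differences of several fold could not be detected for the genes that move with *Prm1*.

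The member at an unadjusted p under 0.05 in primary spermatocytes was *Prss50*. All 4 KO libraries (1.58 to 11.3 RPKM) were above both WT libraries (0.0830 and 0.222 RPKM), with a difference of 3.83 ± 0.86 (unadjusted p = 0.000354, adjusted p = 0.197, limma). It was 3.64 ± 0.70 with the quantification set as a covariate (adjusted p = 0.0251, limma), and over all alternatives the adjusted p ran from 0.0251 to 1. The quantification sets are groups of libraries that lack values for the same transcripts. With the set as a covariate, 397 of 19039 genes were called higher and 4 lower in KO primary spermatocytes. The library of mouse 613 is alone in its set, so that fit leaves it out of the difference. Within the one set that holds both genotypes at this stage, KO mouse 614 had 1.58 and WT mouse 648 0.0830 RPKM. The summed spermatogonia markers in the same libraries were 45.8 to 274 RPKM in KO and 18.6 and 19.4 RPKM in WT, and their part in the difference was not tested. In spermatogonia themselves *Prss50* did not separate the genotypes (0.306 ± 0.998, adjusted p = 0.979, limma).

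In whole testes the member was *Prss44*. It was 4.12 and 1.31 RPKM in WT mice 178 and 648 and 8.11, 11.6, 7.69, 14.8 and 7.48 RPKM in KO mice 214, 269, 273, 286 and 308, without overlap. The difference was 1.99 ± 0.56 (unadjusted p = 0.0058, adjusted p = 0.312, limma), and it was 1.20 in the quantification set with 1 WT and 5 KO testes (adjusted p = 0.292 with the set as a covariate, and 0.128 to 0.999 over all alternatives, limma). In sorted cells the same gene gave 1.23 ± 0.97 in primary spermatocytes and -0.19 ± 1.03 in spermatids (adjusted p = 0.701 and 1, limma).

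In KO spermatogonia 3 members (*Prss46*, *Prss54*, *Prss58*) were called higher without mouse 286 and 4 (these and *Prss37*) without mice 648 and 286. Over all genes the calls went from 0 to 1317 higher and 39 lower of 18965 in the first setting and to 567 higher and 3 lower of 19029 in the second. In both settings the KO group was mouse 544 alone, the library with 1402 RPKM of *Prm1*, set against mouse 178 alone in the second setting. The library of KO mouse 286 was lower in all 3 (*Prss46* 2.60, *Prss54* 0.170 and *Prss58* 0.386 RPKM) than mouse 178. Beside WT mouse 648 it was higher in *Prss46* and *Prss58* (1.25 and 0.156 RPKM in mouse 648) and lower in *Prss54* (0.831 RPKM).

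Other genes of the same roles are given beside the 9.5% of all genes called higher and 22% called lower at the first step. Of 11 further testis serine proteases, among them *Acr*, which encodes the acrosomal protease acrosin, 6 were higher and 0 lower in primary spermatocytes than in spermatogonia (limma), with a median of 1.88, and 0 were called at the 2 later steps. The most abundant were *Pcsk4*, a proprotein convertase of germ cells (20.045 RPKM in the median spermatogonia library and 119.55 in the median primary spermatocyte library, difference 2.11 ± 0.65, adjusted p = 0.0206, limma), and *Prss39* (15.4 and 86.7 RPKM, 1.70 ± 0.75, adjusted p = 0.0943, limma). Of 3 genes for the acrosin partner and protease inhibitors, *Acrbp* (2.07 ± 0.61) and *Spink2* (2.20 ± 0.53) were higher and *Serpina5* (-2.97 ± 0.75) was lower at this step (adjusted p = 0.0165, 0.00477 and 0.00646, limma), and 0 were called later. Median levels of *Acrbp* and *Spink2*, the acrosin-binding protein and a sperm protease inhibitor, went from 230.5 and 136.6 RPKM to 1400.5 and 620 RPKM. Of 10 tested genes for the maturation of ADAM3, 3 were higher at the first step (*Adam2*, *Clgn* and *Rnase10*, the last at an adjusted p of 0.0424, limma) and 1 (*Tex101*) was lower at the second. All 3 calls at the first step were higher, beside 9.5% of all genes called higher and 22% lower, and a share of 10 genes is imprecise. *Adam3* itself, the most abundant of them, had 313 RPKM in the median spermatogonia library and 1324 RPKM in the median primary spermatocyte library (1.76 ± 0.82, adjusted p = 0.115, limma), and *Clgn*, a chaperone of the same pathway, 116 and 538 RPKM (2.09 ± 0.49, adjusted p = 0.00406, limma).

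The genes whose levels were most like each member's over the 20 libraries are given with their correlation. They were *Etfa* and *Mcm5* for *Prss50* (r = 0.966 and 0.960), *Msrb3* and *1700010B08Rik* for *Prss42* (0.965 and 0.962), *Ndufaf3* and *B3gnt4* for *Prss44* (0.970 and 0.968) and *Ccna1* and *Prss39* for *Prss21* (0.969 and 0.968). For *Prss46* they were *Ccdc105* and *Izumo3* (0.973 and 0.972) and for *Prss54* *Slc22a14* and *Spata21* (0.995 and 0.990). *Prss37* was nearest to *Cst13* and *Tuba8* (0.987 for each), *Prss55* to *H1fnt*, a spermatid linker histone gene, and *Hspa1l* (0.991 and 0.990), and *Prss58* to *Tmem269* and *Mgat4e* (0.972 and 0.956). Each is the best of 13284 genes with a mean of at least 1 RPKM, so a high value is what the choice selects.

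The 250 bases before the start of 7 members were searched, in the RefSeq promoter table of GRCm38.p6, for 4 short motifs on both strands: TATAAA, the core TGACG of cAMP response elements, CNGTTG as bound by MYB factors, and GTTGCC as bound by RFX factors. TATAAA and TGACG were in 0 of 7, against 12.4% and 17.8% of 32851 promoters. CNGTTG (29.3% of promoters) and GTTGCC (10.4%) were each in 2 of 7, *Prss21* and *Prss46*, one a gene that rose by primary spermatocytes and the other a gene with its higher levels later. The part of each that holds them is shown because these are the only members among the 7 with either, with the matches in capitals. In *Prss21* both GTTGCC matches overlap with a CNGTTG match.
*Prss21*, chr17:23867852-23867951, plus strand: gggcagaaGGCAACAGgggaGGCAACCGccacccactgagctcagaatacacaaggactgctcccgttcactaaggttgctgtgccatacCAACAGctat
*Prss46*, chr9:110844386-110844485, plus strand: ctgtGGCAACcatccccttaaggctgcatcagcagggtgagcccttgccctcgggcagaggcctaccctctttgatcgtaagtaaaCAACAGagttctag
*Prss42*, of the same chromosome 9 group as *Prss46* and with the early rise of *Prss21*, held none of the 4 motifs in this window. A match is a description of the letters and not a binding site.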

How the data were processed

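The authors aligned paired reads of 101 bases with TopHat2 and deposited RPKM values per Ensembl release 72 transcript. The deposited RPKM values are neither counts nor log values. In 27 of 28 libraries 93.1% to 94.6% of the low values fell within 0.06 of a whole read (12% by chance), which gave the depths used here, while KO mouse 613 gave 11.8% and has no depth. Libraries lacked values for 865, 1411, 2828 or 12787 transcripts, which defined 4 quantification sets of 14, 7, 6 and 1 libraries. Of 94480 transcripts, 90432 (95.7%) matched GENCODE M21 (GRCm38), and rows were summed per gene. Overlapping transcripts repeat the same reads in such sums (*Prss46*, *Prss54*, *Prss55*). Whether counting used strand is not given in the sources used here.

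limma 3.58.1 in R 4.3.3 was fitted with an intensity trend to log2(RPKM + 0.1), for genes whose mean reached 0.1 RPKM, in 20 sorted libraries (8 groups) and in 7 whole testes, with Benjamini-Hochberg adjustment and an adjusted p of 0.05. Fold changes on this scale understate the change of low genes. The fits were tested on simulated data with independent noise and no mouse effect, which cannot show how they behave when stages share mice. Stage differences weigh both genotypes equally. Stages share mice by the labels, and residuals of the same mouse had a median correlation of 0.48 (22 pairs, -0.15 to 0.70) against -0.05 between mice (151 pairs, -0.70 to 0.67), so the mouse was used as a block in an alternative fit. All 9 members, the 2 genes nearest to each, and the 2 most abundant genes of each further list are named, with others named after their values were seen. The members and lists were chosen with earlier results of these data known. Correlations and sequences used Python 3.11.15 with pandas 2.3.3. Sequences are from GENCODE and RefSeq, and promoters of *Prss44* and *Prss55* were not analysed here. Alternatives covered the pseudocount, the low-value filter, quantile normalization, 1 transcript per gene, the set as a covariate, the block, each genotype alone and left-out mice and libraries.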

Additional observations from a re-analysis of the deposited data

Results flagged for a closer look

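In KO primary spermatocytes *Prss44* was 9.74 RPKM in mouse 614, while the other 3 mice held 16.5 to 17.5 RPKM. The gap took 0.875 of the range of the 4 samples, above Dixon's critical value of 0.829. It was 1 of 18 member groups tested in this way, and chance gives about 1 such group in 20.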

How the results depend on the processing

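Of 308 counts of called members under alternatives, 289 stayed within 1.5 times the reported count, and of 571 member differences 505 kept their direction and side of the threshold, 16 (4 differences) lost the call, 18 (9) gained one and 32 (10) changed sign. Differences are on the log2 scale, and where no value bears on it the cause was not tested. In KO libraries alone 0 of 19390 genes were called from spermatogonia to primary spermatocytes, so a lost call there is not particular to the members. From spermatogonia to primary spermatocytes the members called higher (3) numbered 1 to 5 when each mouse was left out, 5 without the spermatogonia library of mouse 544, 0 in KO libraries alone and 1 without mice 648 and 286, a setting chosen after seeing the data. Those called lower (1) numbered 0 to 2 with a mouse left out, 0 with quantile normalization, without mice 648 and 614 or in KO libraries alone, and 4 without mice 648 and 286. From primary to secondary spermatocytes the members called higher (0) numbered 0 to 2 with a mouse left out, 2 without the library of mouse 544 and 4 without mice 648 and 286. With the mouse as a replicate block this count was 2 (*Prss46* and *Prss54*), and the block changed no other call of a member. In KO spermatogonia the members called higher (0) numbered 0 to 3 with a mouse left out and 4 without mice 648 and 286, the KO group then being 1 library assumed to vary like the others. In KO primary spermatocytes it was 1 with the quantification set as a covariate, beside 397 higher and 4 lower over 19039 genes.

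None of the differences that changed sign was called with all libraries. At the first step *Prss37* was 0.99 and *Prss55* 1.47 without the library of mouse 544. *Prss46* was -0.03 without mice 648 and 614, -0.13 in KO libraries alone and -1.39 without mice 648 and 286. *Prss54* was -0.08 with a pseudocount of 1 RPKM, -0.25 without mice 648 and 614 and -2.25 without 648 and 286. *Prss58* was -0.09, -0.40 and -2.12 in the same 3 settings and -0.54 in KO libraries alone. With a mouse left out the ranges were -3.12 to 1.18 for *Prss37*, -2.85 to 1.66 for *Prss55*, -0.68 to 2.27 for *Prss46*, -1.69 to 2.79 for *Prss54* and -1.17 to 2.34 for *Prss58*. At the second step *Prss42* was 0.00 with the set as a covariate, 0.03 in WT libraries alone and -0.33 to 0.21 with a mouse left out. At the third step *Prss21* was 0.12, *Prss37* -0.89 and *Prss55* -0.28 in KO libraries alone, *Prss37* -0.13 with a pseudocount of 0.01 and *Prss50* 0.04 with quantile normalization. With a mouse left out they ran from -0.42 to 0.01 (*Prss21*), -1.29 to 2.04 (*Prss37*) and -0.98 to 0.20 (*Prss50*). Quantile normalization moved the median of all genes from -0.27 to 0.08, 0.18 to -0.09 and -0.33 to -0.08 in the 3 steps. The second step's 541 higher and 37 lower genes became 305 and 186 with it, and 2865 and 917 with the block. The third step's 1 and 102 became 0 and 12, and 97 and 1880. At their low levels, 10 reads or fewer of the main transcript lay behind values of *Prss37*, *Prss44*, *Prss50*, *Prss54*, *Prss55* and *Prss58*. In spermatogonia of mouse 286, *Prss54* rested on 4 reads and *Prss55* on 2. In those of mouse 648, *Prss58* rested on 7 reads and *Prss44* on 10.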
